A study of Mus musculus with 12 samples.

Results

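The homeostatic microglia genes described here are P2ry12, P2ry13, Tmem119, Csf1r, Cx3cr1, Selplg, Fcrls, Olfml3 and Gpr34. They were chosen by name, as genes known to mark resting microglia, with earlier results of these data known. They were found through the gene symbol that the array annotation gives each probe set, a group of short probes against 1 transcript. All 9 genes were on the array, on 10 of its 45141 probe sets, since Cx3cr1 has 2 and each of the others 1. They are 9 of 17097 genes with a symbol of their own, and 8 of the 9 were bright enough to be tested among 13853 genes. Gpr34 was not.

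Microglia are the resident macrophages of the brain. In the healthy brain they carry receptors that read signals from neurons, among them P2ry12 for ADP released at sites of injury and Cx3cr1 for the neuronal chemokine Cx3cl1, and they depend on the receptor Csf1r to survive. These genes are known as a homeostatic set because their transcripts are high in resting microglia, and several of them are known to fall when microglia become reactive.

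Expression was measured in the hippocampus on the injected side of mice after kainic acid (KA), which activates kainate receptors for glutamate, was put into the amygdala to cause status epilepticus, a prolonged seizure. The question was how transcripts differed soon after and long after that seizure. The 4 groups of 3 arrays each were vehicle controls at 8 h, KA at 8 h, vehicle controls at 14 d and KA at 14 d. Every array title begins with the word Input, and what it means is not stated in the labels. KA mice received 0.3 µg in 0.2 µl, and controls 0.2 µl of the phosphate-buffered vehicle in the same place. Lorazepam, a benzodiazepine that dampens seizures, was injected into the abdomen at 6 mg/kg, 40 min after KA, and whether controls received it is not stated in the labels. The labels give no strain, age or sex, and nothing in them ties each array to a mouse of its own. The p-values therefore reflect only how these samples spread, which may be technical. Arrays titled 8 h carry a separate time entry that differs on every array. In array order it reads 8, 9 and 10 h for controls and 11, 12 and 13 h for KA. The titles were followed, and under that entry KA and time could not be told apart at 8 h.

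Values are log2 intensities. Array medians were 4.90 to 4.95, and arrays of a group correlated at r = 0.989 to 0.997 over probe sets. An array's background was taken as the mean of its 8 GC-rich control probe sets with no target, with group means (± SD, n = 3) of 4.34 ± 0.16 for the 8 h controls, 4.28 ± 0.18 for KA at 8 h, 4.34 ± 0.14 for the 14 d controls and 4.53 ± 0.23 for KA at 14 d. The number of arrays, 3 per group, limits the precision. The KA arrays at 8 h also differed from the other 9 in sex-linked genes. Xist, an RNA made by the inactive X chromosome, was at 7.39 to 8.71 on them and at 4.19 to 4.67 on the other 9. The Y-linked Eif2s3y was at 5.57 to 6.83 on them and at 7.46 to 8.09 elsewhere, and Kdm5d, also Y-linked, at 5.07 to 6.10 against 6.43 to 6.95. Since this holds for all 3 arrays of that group, sex makeup and KA cannot be told apart in any comparison that uses KA at 8 h, and its part in the changes below was not tested.

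Promoter sequence is shown for the gene that fell most at 8 h (P2ry12), for its neighbour on chromosome 3 (P2ry13) and for the gene that rose (Fcrls), so that the 3 can be compared. Each is the 250 bases before the transcription start in RefSeq (GRCm38.p6), 5′ to 3′ on the minus strand, at chr3:59262986-59263235 for P2ry12, chr3:59210883-59211132 for P2ry13 and chr3:87263525-87263774 for Fcrls. Capitals mark GAGGAA, the core letters bound by the myeloid factor PU.1, and CAGACA, letters bound by SMAD proteins.
P2ry12: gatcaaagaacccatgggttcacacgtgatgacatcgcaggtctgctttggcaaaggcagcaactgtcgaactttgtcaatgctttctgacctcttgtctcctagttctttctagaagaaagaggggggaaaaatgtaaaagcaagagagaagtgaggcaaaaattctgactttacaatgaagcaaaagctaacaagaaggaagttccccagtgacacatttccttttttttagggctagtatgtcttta
P2ry13: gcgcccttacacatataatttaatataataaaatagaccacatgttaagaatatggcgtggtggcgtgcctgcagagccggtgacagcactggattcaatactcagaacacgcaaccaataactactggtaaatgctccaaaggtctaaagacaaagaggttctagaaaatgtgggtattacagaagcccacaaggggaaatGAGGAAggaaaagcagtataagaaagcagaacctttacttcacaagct
Fcrls: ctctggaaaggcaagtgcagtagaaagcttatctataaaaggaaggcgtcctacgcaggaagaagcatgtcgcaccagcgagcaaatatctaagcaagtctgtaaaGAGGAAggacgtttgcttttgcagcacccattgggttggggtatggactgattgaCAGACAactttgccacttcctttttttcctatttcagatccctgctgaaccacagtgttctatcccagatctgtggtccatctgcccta
Both strands were searched. GAGGAA begins 48 bases before the start in P2ry13 and 144 bases before it in Fcrls, and CAGACA 89 bases before it in Fcrls. Over 32851 promoters of this length, 23.3% held GAGGAA and 17.1% held CAGACA. The table held promoters for 5 of the 9 genes, the others being Cx3cr1 and Olfml3. GAGGAA was in 2 of the 5 and CAGACA in 1. TGANTCA, bound by AP-1 and present in 6.75% of promoters, and the core of the interferon-stimulated element, present in 2.98%, were in none of the 5. A match describes these letters only.

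The homeostatic genes moved in different directions at 8 h and in 1 direction at 14 d. At 8 h after KA, P2ry12, P2ry13, Tmem119, Csf1r and Selplg fell, Fcrls rose, and Cx3cr1 and Olfml3 did not pass the test. At 14 d, 7 of the 8 rose, the exception being P2ry12. A gene was called changed at an adjusted p under 0.05 in limma. The 6 of 8 called at 8 h stand beside 17.5% of all 13853 genes (7.92% rose and 9.55% fell), and the 7 of 8 that rose at 14 d beside 2.56% called and 1.99% that rose. Since earlier results of these data were known when the genes were chosen, these counts describe the set and do not test it. The median log2 change of the 8 was -0.35 at 8 h and 0.82 at 14 d, where the medians of all genes tested were -0.02 and -0.01. In bulk tissue, fewer cells of a type and less RNA per cell cannot be told apart.

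**Figure D1:**
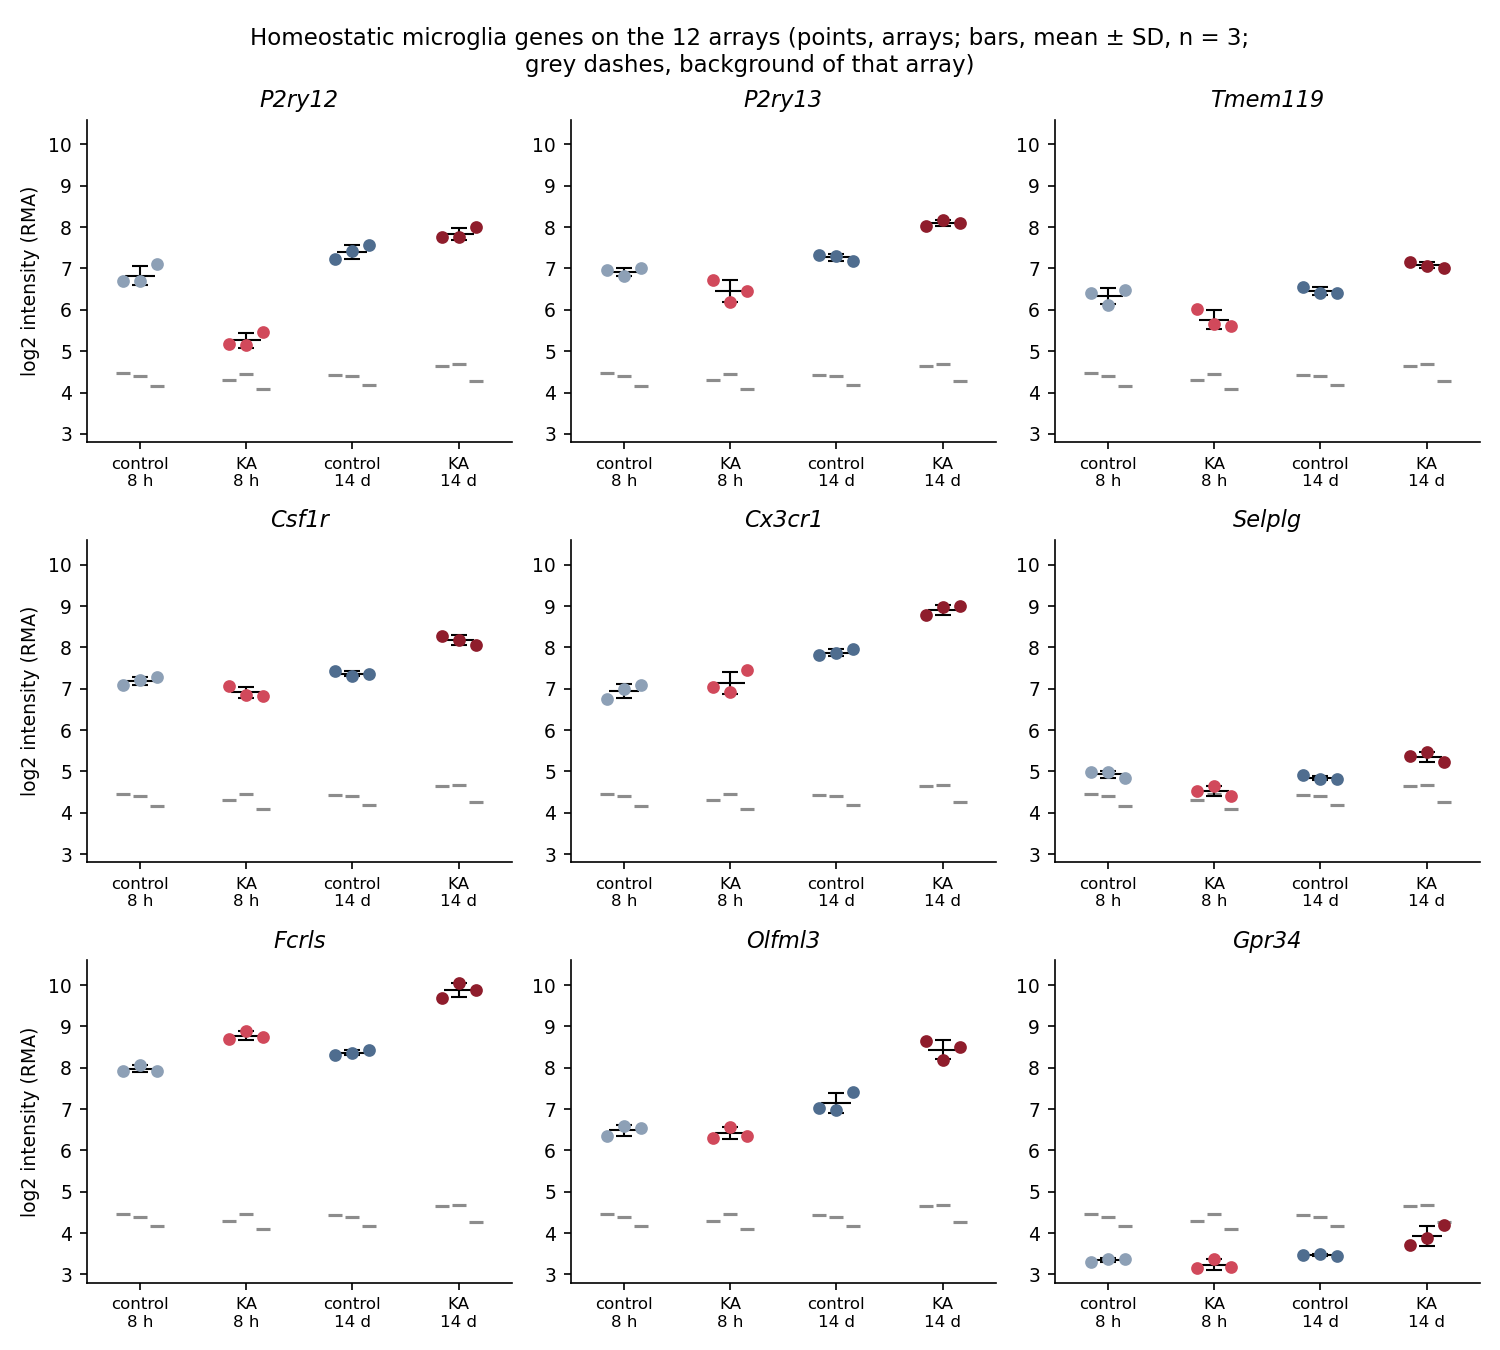
Log2 intensity of each of the 9 genes on the 12 arrays, by group, with points for arrays, bars for mean ± SD (n = 3) and grey dashes for the background of that array. P2ry12 drops to between 5.15 and 5.47 in KA at 8 h, every gene is highest in KA at 14 d, and Gpr34 lies below background on every array.

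P2ry12 and P2ry13 encode related receptors for ADP, and P2ry12 directs microglial processes to injured cells. P2ry12 (probe set 1431724_PM_a_at) was at 6.69, 6.70 and 7.10 in the 8 h controls and at 5.18, 5.15 and 5.47 in KA at 8 h. In the 14 d controls it was at 7.23, 7.42 and 7.57, and in KA at 14 d at 7.76, 7.76 and 8.01. All KA arrays at 8 h lay below every other array by more than a log2 unit, while at 14 d KA lay just above the controls with no overlap. P2ry12 was 2.96-fold lower at 8 h (log2 change -1.56 ± 0.13, SE, n = 3 per group, limma adjusted p = 7.21e-07), the 3rd lowest change of the 13853 genes. On those arrays it was still 0.69 to 1.37 above background. At 14 d its log2 change was 0.43 ± 0.13 (adjusted p = 0.104), with a 95% interval of 0.16 to 0.71. That comparison passed with an adjusted p of 0.0340 when the third array of each group was left out, 0.00865 with array weights, and 0.00309 and 0.00521 with the replicate number as a block (pairing), over all 4 groups and within each time.

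P2ry13 (1428700_PM_at) was at 6.96, 6.81 and 7.00 in the 8 h controls and at 6.72, 6.20 and 6.45 in KA at 8 h. It was at 7.33, 7.29 and 7.18 in the 14 d controls and at 8.03, 8.18 and 8.09 in KA at 14 d. KA arrays were below their controls at 8 h and above them at 14 d, with no overlap either time. The fall at 8 h was 1.38-fold (log2 -0.47 ± 0.11, adjusted p = 0.00905), and the adjusted p was 0.0629 without the third array of each group. The rise at 14 d was 1.78-fold (0.83 ± 0.11, adjusted p = 0.000451). Beyond this shared direction at 8 h, P2ry12 fell further, which the differences within arrays below describe.

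Csf1r, the tyrosine kinase receptor for Csf1 and Il34, changed least among the 5 that fell. Its probe set (1423593_PM_a_at) was at 7.10, 7.20 and 7.29 in the 8 h controls and at 7.07, 6.84 and 6.82 in KA at 8 h. At 14 d it was at 7.43, 7.31 and 7.35 in controls and at 8.28, 8.18 and 8.05 in KA. The 8 h groups touched closely, with a KA array at 7.07 beside a control at 7.10, whereas at 14 d a wide gap separated them. The fall was 1.22-fold (-0.29 ± 0.09, limma adjusted p = 0.0451). It kept its sign and lost its call in 10 of 25 alternatives, with adjusted p up to 0.290. These were cyclic loess, a fit of only the groups compared, leaving out the third arrays, and leaving out 1 of control 8 h replicates 2 and 3, KA 8 h replicates 2 and 3 or any of the 14 d controls. The rise at 14 d was 1.75-fold (0.81 ± 0.09, adjusted p = 9.05e-05).

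Cx3cr1, the fractalkine receptor, was not called at 8 h. Its brighter probe set (1450020_PM_at) was at 6.76, 6.98 and 7.09 in the 8 h controls and at 7.04, 6.93 and 7.45 in KA at 8 h. It was at 7.81, 7.86 and 7.96 in the 14 d controls and at 8.78, 8.97 and 9.00 in KA at 14 d. KA and control overlapped at 8 h, and both 14 d groups lay above both 8 h groups. The log2 change at 8 h was 0.20 ± 0.12 (limma adjusted p = 0.341), with a 95% interval of -0.07 to 0.46. At 14 d Cx3cr1 was 2.06-fold higher (1.04 ± 0.12, adjusted p = 0.000130). The other probe set (1450019_PM_at) gave 0.17 at 8 h and 1.02 at 14 d.

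Tmem119 encodes a membrane protein used to tell microglia from other macrophages, and Selplg encodes PSGL-1, a ligand of P-selectin. Tmem119 (1451344_PM_at) was at 6.40, 6.12 and 6.48 in the 8 h controls and at 6.02, 5.65 and 5.62 in KA at 8 h. At 14 d it was at 6.56, 6.40 and 6.40 in controls and at 7.17, 7.07 and 7.02 in KA. At neither time did KA and control overlap, and the direction turned between them. The fall was 1.49-fold (-0.57 ± 0.12, limma adjusted p = 0.00295) and the rise 1.55-fold (0.63 ± 0.12, adjusted p = 0.00662).

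Selplg (1449127_PM_at) was the dimmest of the genes tested, only 0.20 to 0.95 above background. It was at 4.98, 4.98 and 4.84 in the 8 h controls and at 4.53, 4.65 and 4.41 in KA at 8 h. At 14 d controls were at 4.90, 4.82 and 4.82 and KA at 5.37, 5.47 and 5.22. The groups did not overlap at either time, low after KA at 8 h and high at 14 d. It fell 1.32-fold (-0.40 ± 0.09, limma adjusted p = 0.00543) and rose 1.42-fold (0.50 ± 0.09, adjusted p = 0.00498). So close to background, a log2 change can understate the change in RNA.

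Fcrls, an Fc receptor-like scavenger receptor of mouse microglia, went up at both times. Its probe set (1448891_PM_at) was at 7.93, 8.07 and 7.93 in the 8 h controls and at 8.69, 8.90 and 8.74 in KA at 8 h. It was at 8.31, 8.35 and 8.43 in the 14 d controls and at 9.70, 10.04 and 9.88 in KA at 14 d. Every KA array was above every control of its time. Fcrls was 1.74-fold higher at 8 h (0.80 ± 0.10, limma adjusted p = 2.92e-05) and 2.84-fold higher at 14 d (1.51 ± 0.10, adjusted p = 1.16e-07), the 20th highest change of 13853.

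Olfml3, which encodes a secreted olfactomedin-like protein, was called at 14 d and not at 8 h. Its probe set (1448475_PM_at) was at 6.34, 6.60 and 6.53 in the 8 h controls and at 6.31, 6.58 and 6.35 in KA at 8 h. It was at 7.02, 6.99 and 7.41 in the 14 d controls and at 8.65, 8.18 and 8.49 in KA at 14 d. The 8 h groups overlapped almost whole, and the 14 d groups did not overlap. The log2 change was -0.08 ± 0.13 at 8 h (limma adjusted p = 0.788, 95% interval -0.36 to 0.21). At 14 d it was 2.46-fold higher (1.30 ± 0.13, adjusted p = 2.76e-05).

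Gpr34, a receptor for lysophosphatidylserine, lay at 3.15 to 3.50 on the 9 arrays other than KA at 14 d and at 3.72, 3.88 and 4.19 in KA at 14 d (1422542_PM_at). Every array was below its own background, so no change is given. Gpr34 lies on the X chromosome.

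Counting groups rather than tests gave a like picture. At 8 h KA and control arrays did not overlap for 6 of the 8 genes tested (1 higher, 5 lower), beside 33.8% of all genes, 14.8% higher and 18.9% lower. At 14 d KA was above control with no overlap for all 8, beside 16.5% of all genes with no overlap in either direction and 8.02% with KA higher.

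**Figure D2:**
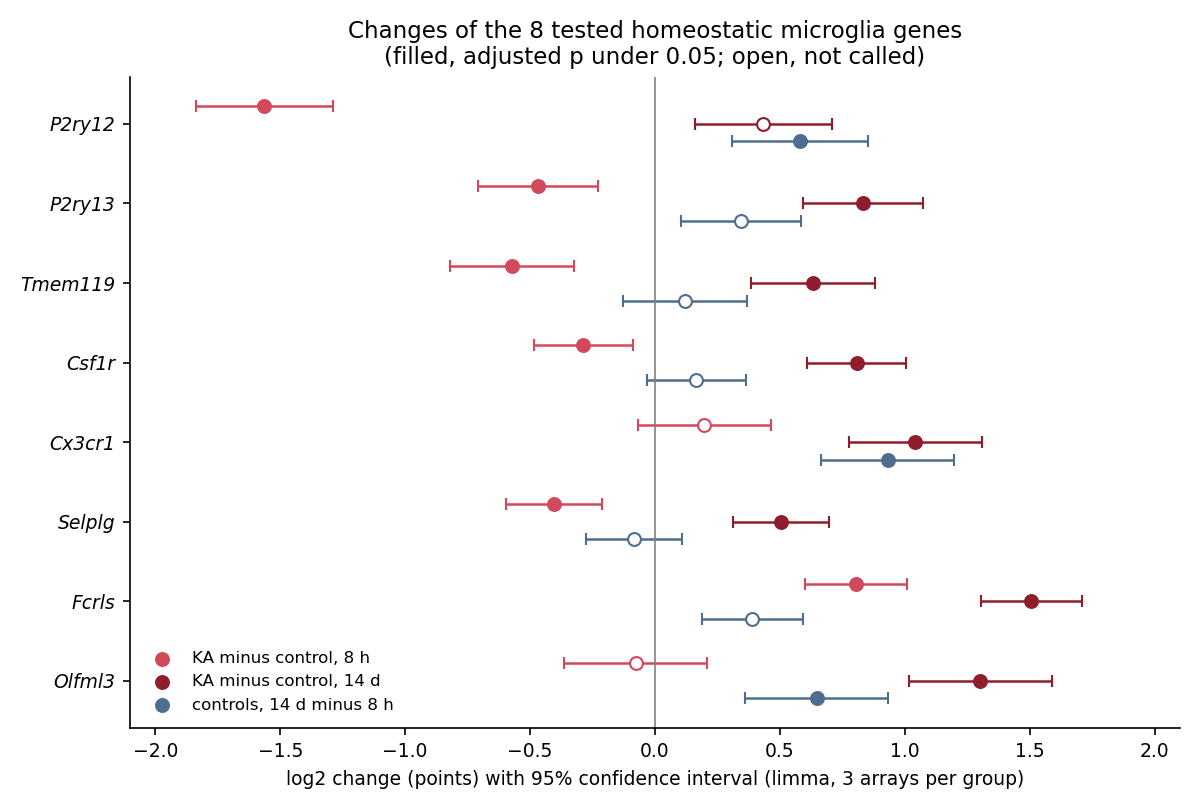
Log2 change (points, filled where called) with its 95% confidence interval from limma for the 8 genes tested, for KA minus control at 8 h and 14 d and for the 14 d controls minus the 8 h controls (3 arrays per group). At 8 h the points run from -1.56 for P2ry12 to 0.80 for Fcrls, and at 14 d all lie above 0.

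The change at 14 d was tested against the change at 8 h, and it was higher for 8 of the 8 genes, beside 5.52% of all genes called in either direction and 2.45% called higher. The median difference of the 8 was 1.15 log2 units, against 0.02 for all genes. P2ry12 had the widest difference, 1.997 ± 0.18 (limma adjusted p = 8.33e-06), the 5th highest of all genes, and Fcrls the narrowest, 0.70 ± 0.14 (adjusted p = 0.00528). All 8 kept this call under all 24 alternatives. The difference uses KA at 8 h, the group set apart by Xist.

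The vehicle controls themselves differed between the times. P2ry12, Cx3cr1 and Olfml3 were higher in the 14 d controls than in the 8 h controls, 3 of 8 genes beside 1.8% of all genes called and 1.12% called higher. Cx3cr1 was 1.91-fold higher (log2 0.93 ± 0.12, limma adjusted p = 0.00138), the 6th highest of 13853 genes, and its other probe set gave 0.78. Olfml3 was 1.57-fold higher (0.65 ± 0.13, adjusted p = 0.0207) and P2ry12 1.50-fold higher (0.58 ± 0.13, adjusted p = 0.0291). Fcrls narrowly missed, at 0.39 ± 0.10 (adjusted p = 0.0510), while P2ry13, Tmem119, Csf1r and Selplg gave 0.35, 0.12, 0.17 and -0.09. For 6 of the 8, the 14 d controls lay wholly above the 8 h controls, beside 25.1% of all genes with no overlap and 15.3% with the 14 d controls higher. Cx3cr1 kept its call when any 1 array was left out, but the count fell to 1 without control 8 h replicate 1 or control 14 d replicate 3. P2ry12 lost its call also without control 8 h replicate 2 or control 14 d replicate 2, and Olfml3 also without control 8 h replicate 3, control 14 d replicate 1 or the third arrays. Both control groups enter the KA comparisons, so these changes are counted from different starting levels.

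Differences between 2 genes on the same array show whether they changed unequally, and are given here relative to their mean in the 8 h controls. Fcrls minus P2ry12 spread from -0.32 to 0.23 in the 8 h controls and stood at 2.13 to 2.61 in KA at 8 h. It was -0.29 to -0.07 in the 14 d controls and 0.72 to 1.13 in KA at 14 d. KA arrays were thus above controls at both times, and furthest at 8 h. Cx3cr1 minus P2ry12 was 1.67 to 1.87 in KA at 8 h against -0.12 to 0.17 in its controls, and 0.88 to 1.09 in KA at 14 d against 0.27 to 0.46. P2ry13 minus P2ry12 was 0.88 to 1.45 in KA at 8 h against -0.19 to 0.17, while its 14 d ranges, -0.01 to 0.33 in KA and -0.49 to 0.01 in controls, overlapped. Tmem119 minus Selplg, the neighbouring pair on chromosome 5, overlapped between KA and control at both times. P2ry12 therefore changed unequally to the other 3 at 8 h, on every KA array.

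**Figure D3:**
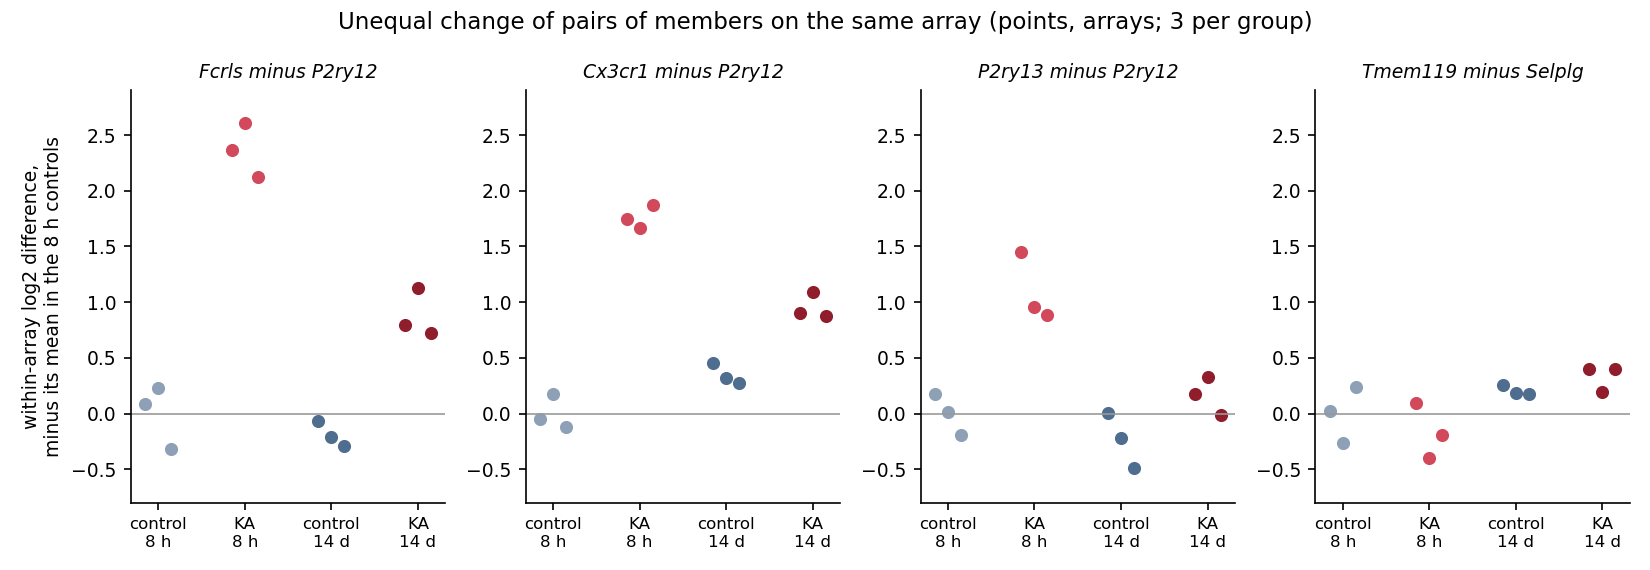
Within-array log2 difference between pairs of homeostatic genes, shifted to a mean of 0 in the 8 h controls, with 1 point per array and 3 arrays per group. The KA arrays at 8 h stand at 2.13 to 2.61 for Fcrls minus P2ry12, while Tmem119 minus Selplg overlaps between KA and control.

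Of 18 ligands and partners of these receptors listed, 16 were tested. At 8 h 3 rose and 1 fell, beside 17.5% of all genes called, and at 14 d 2 rose, beside 1.99% of all genes, with medians of 0.15 and 0.14. Tgfbr2, a receptor subunit for TGF-beta, which maintains the homeostatic state, rose at 8 h (0.46 ± 0.13, limma adjusted p = 0.0225) and at 14 d (1.13 ± 0.13, adjusted p = 8.67e-05). Its effector Smad3 rose at 8 h (0.37 ± 0.09, adjusted p = 0.0101). The other probe sets of Tgfbr2 gave 0.17 and -0.06 at 8 h and, in the same order, 0.57 and -0.05 at 14 d. Tgfb1, Tgfb2 and Tgfbr1 were not called at either time. They gave 0.19, 0.18 and -0.16 at 8 h and 0.39, -0.12 and 0.37 at 14 d. Tyrobp, the adaptor of several microglial receptors, rose at both times, by 0.46 and 1.95. Csf1, a ligand of Csf1r, gave -0.01 (adjusted p = 0.976) and 0.12 (adjusted p = 0.734). Its other probe sets gave 0.08, 0.03 and 0.26 at 8 h and, in the same order, 0.09, 0.11 and 0.50 at 14 d. Il34, the other ligand, was called lower at 8 h (-0.35, adjusted p = 0.00876), but none of the 3 KA arrays was above background there. Measured from background, its fold is at least 1.08, with 2 of 3 control arrays above background. Cx3cl1, the neuronal ligand of Cx3cr1, gave 0.19 (adjusted p = 0.107) and -0.06 (adjusted p = 0.829). The proteases Adam10 and Adam17, which shed Cx3cl1, were higher in the 14 d than in the 8 h controls, by 0.47 (adjusted p = 0.0320) and 0.48 (adjusted p = 0.0268), and gave -0.03 and 0.24 after KA at 8 h.

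Of 10 transcription factors of microglia tested, 2 rose and 1 fell at 8 h, beside 7.92% and 9.55% of all genes, and 3 rose at 14 d, beside 1.99%. Bhlhe41, a repressor in resident macrophages, rose at both times (0.83 ± 0.09, limma adjusted p = 6.32e-06, and 0.45 ± 0.09, adjusted p = 0.00811). Mef2a fell at 8 h (-0.58 ± 0.12, adjusted p = 0.00282), with the same sign on its 5 probe sets. Mef2a is also expressed in neurons. Cebpa (0.79) and Irf8 (0.57) rose at 14 d. Spi1, which encodes PU.1, gave 0.11 (adjusted p = 0.559) and 0.29 (adjusted p = 0.213). Sall1, a factor that keeps microglial identity, was not above background on any array.

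Of 24 other genes enriched in microglia listed, 20 were tested. At 8 h 3 of the 20 fell and 1 rose, near the 17.5% of all genes called, with a median of -0.05. Those that fell were Mertk, a receptor for engulfment of dying cells (-0.55 ± 0.11, limma adjusted p = 0.00241), Golm1 (-0.52) and Lpcat2 (-0.35). Rgs10, a regulator of G-protein signalling, rose by 0.30. At 14 d 8 rose and 0 fell in limma, beside 1.99% of all genes that rose, with a median of 0.33. At an unadjusted p under 0.05 the counts were 13 and 0, with no share of all genes taken at that threshold. Itgb5, an integrin subunit, rose by 0.93, Rnase4 by 0.87 and Rgs10 by 0.64. Mertk was lower in the 14 d controls than in the 8 h controls (-0.60, adjusted p = 0.0112), opposite to P2ry12, Cx3cr1 and Olfml3.

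Genes of a broad myeloid list, named pan-myeloid here though not each is made by every myeloid cell, were called in 1 direction only at 8 h. Of 17 tested, 5 rose (C1qb, Cd53, Fcer1g, Itgb2 and Tyrobp) and limma called 0 lower, beside 7.92% of all genes that rose and 9.55% that fell. The median was 0.10, and at an unadjusted p under 0.05 the count lower was also 0. Aif1, which encodes the microglial marker IBA1, gave -0.17 ± 0.12 (limma adjusted p = 0.407). On the same arrays Aif1 minus P2ry12 was 1.13 to 1.59 above its 8 h control mean, while the controls spread from -0.11 to 0.11. At 14 d 14 of the 17 rose, beside 1.99% of all genes, with a median of 1.31. C1qa, a subunit of complement C1q, rose by 2.24 ± 0.11 (adjusted p = 2.04e-08), Tyrobp by 1.95, C1qb by 1.88 and Aif1 by 0.85 ± 0.12 (adjusted p = 0.000607). Itgam and Ptprc, which encode CD11b and CD45, were below the filter. At 14 d the median of the homeostatic genes (0.82) was lower than that of the pan-myeloid list (1.31), a difference that was not tested.

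Of 17 genes tested that are known to rise in disease-associated microglia, 5 rose at 8 h and 12 at 14 d, beside 7.92% and 1.99% of all genes, with medians of 0.18 and 0.90, and limma called 0 lower, also 0 at an unadjusted p under 0.05. Cd68, a lysosomal protein of macrophages, rose by 1.50 at 8 h (limma adjusted p = 2.68e-07) and 1.95 at 14 d, and Cd9, a tetraspanin, by 0.86 and 1.06. Cst7, a cysteine protease inhibitor, was at least 13.5-fold higher at 14 d (fitted log2 change 4.06, adjusted p = 4.85e-11), counted from background, which no 14 d control array exceeded. Clec7a, counted among the 12, was at least 1.02-fold higher by the same bound, with 1 of 3 KA arrays above background at 14 d. Ctsd, a lysosomal protease, rose by 1.39 at 14 d. Trem2, a lipid receptor of microglia, rose by 1.36 at 14 d and gave 0.02 at 8 h.

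**Figure D4:**
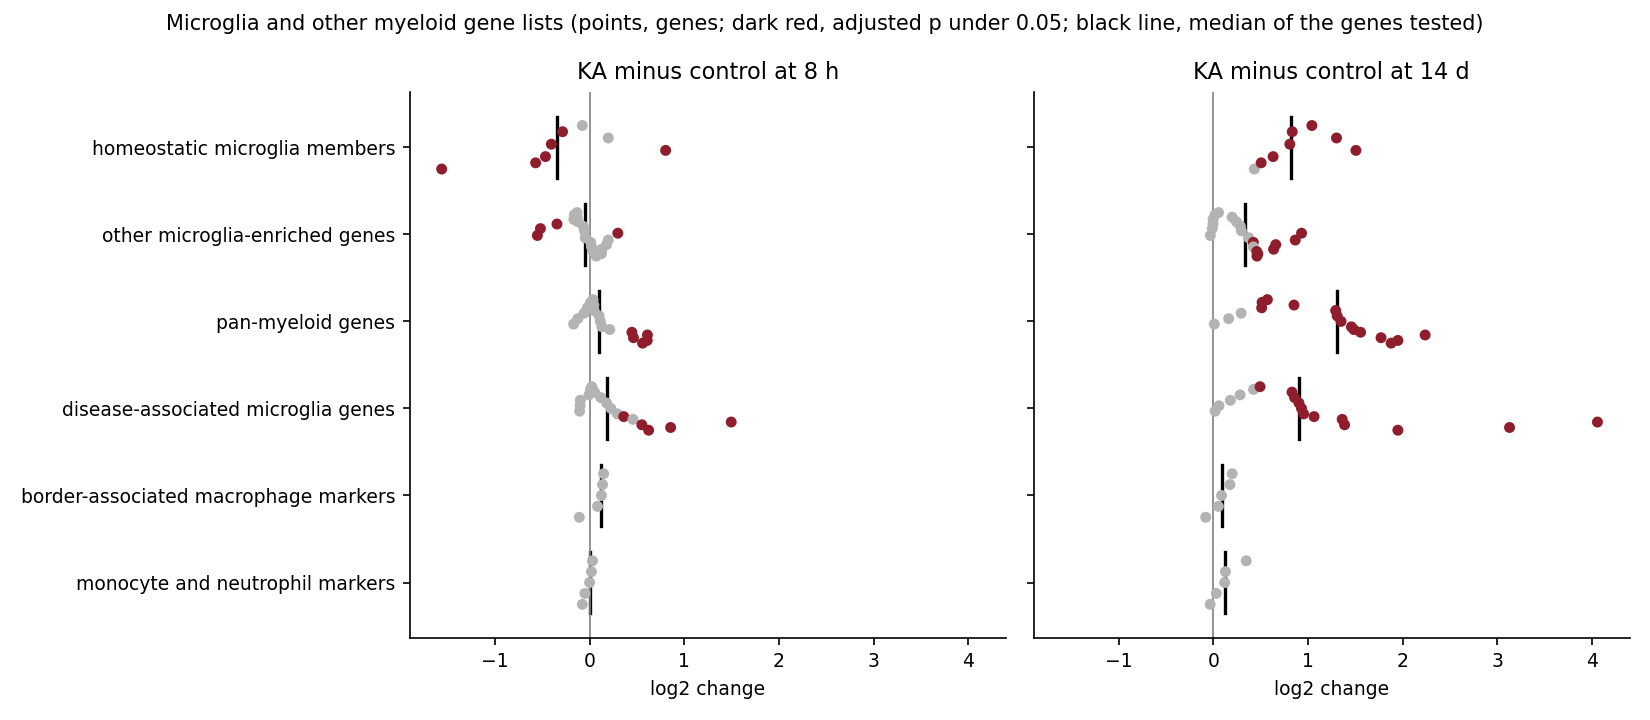
Log2 change of each tested gene (points, dark red where called) in 6 lists of microglia and other myeloid genes at 8 h and at 14 d, with a black line at the median. Homeostatic genes have a median of -0.35 at 8 h, and the border macrophage and the monocyte and neutrophil lists hold no called gene.

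Markers of other myeloid and immune cells gave no call. For border-associated macrophages 5 of 8 markers were tested, for monocytes and neutrophils 5 of 15 and for lymphocytes 4 of 8, and limma called 0 at either time, beside 17.5% of all genes at 8 h and 2.56% at 14 d. Of these 14 markers 4 were above background on all 12 arrays, and the other 10 on 0 to 11 of them, so that the lack of calls says little about these cells. At an unadjusted p under 0.05 the count was 0 for each list, except for Csf3r of the monocyte and neutrophil list at 14 d (0.35, adjusted p = 0.0613). Cd163, Ccr2, S100a8 and Cd3e, which define these cells, were below the filter. The mean log2 level of the 5 monocyte and neutrophil markers was 4.63 on each 8 h control, 4.57 to 4.68 in KA at 8 h, 4.57 to 4.67 in the 14 d controls and 4.62 to 4.83 in KA at 14 d. Border macrophage markers lay at 4.35 to 4.39, 4.42 to 4.48, 4.39 to 4.42 and 4.31 to 4.66 in that order. The border macrophage means lie close to the background of the arrays. Among neurons, 1 of 10 markers fell at each time (Rbfox3 at 8 h and Syt1 at 14 d). That stands beside 9.55% of all genes that fell at 8 h and 2.56% called in either direction at 14 d. Of 9 astrocyte markers 4 rose at 14 d, beside 1.99% of all genes, Aqp4 by 0.94. Of 8 endothelial markers 3 rose and 1 fell at 8 h, and of 7 oligodendrocyte markers 2 fell, beside the same 7.92% and 9.55% of all genes. The part of these lists in the changes of the homeostatic genes was not tested.

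Likeness was measured as the root mean square difference over the 12 arrays, after each gene was centred on its own mean. The genes most like P2ry12 were Eif2s3y (0.488), Igfbp5 (0.510), Padi2 (0.515), Fjx1 (0.528), P2ry13 (0.540) and Ppp1r14a (0.554). The nearest, Eif2s3y, is the Y-linked gene that was low on the same 3 arrays. For Fcrls the distances were far smaller, with Cyba (0.115), Fcer1g (0.118), Itgb2 (0.147), Ctsz (0.178), C1qb (0.215) and Cd9 (0.243). Of these, Cyba, Fcer1g and Itgb2 changed by 0.61, 0.56 and 0.61 at 8 h and by 1.49, 1.48 and 1.46 at 14 d. These genes were picked for their closeness to Fcrls on these same arrays, so their like changes at both times follow from that choice. The gene nearest to P2ry12 stood farther from it than the 6th nearest stood from Fcrls. Genes were centred and not scaled, so this distance grows with the size of change. With the 3rd lowest change of all genes at 8 h, P2ry12 has few genes of like size, and the distances do not compare patterns alone.

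Genes beside the homeostatic genes were taken as those overlapping each and the 2 protein-coding genes on either side. Outside the set itself, 20 such genes were tested, and at 8 h limma called 3 higher (Coro1c, Csrnp1 and the X-linked Ddx3x, 0.24) and 0 lower, near the 17.5% of all genes called, with 4 higher and 2 lower at an unadjusted p under 0.05. At 14 d it called 0, and 0 at an unadjusted p under 0.05. The 2 lower at 8 h were Med12l and Igsf10, both beside P2ry12. P2ry12 and P2ry13 lie within the span of Med12l, a Mediator subunit gene, which gave -0.33 at 8 h (limma adjusted p = 0.0992) and -0.17 at 14 d. P2ry14, a further nucleotide receptor beside them, gave -0.17 (adjusted p = 0.232) and -0.02, and Igsf10 gave -0.52 (adjusted p = 0.0703) and -0.27. Coro1c, next to Selplg, rose at 8 h (0.38, adjusted p = 0.0307). Csrnp1, near Cx3cr1 and known as a gene induced by stress, rose by 2.11 at 8 h (adjusted p = 1.23e-09), when Cx3cr1 was not called. Xirp1, which lies between Csrnp1 and Cx3cr1, gave -0.06 at 8 h (adjusted p = 0.833).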

How the data were processed

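RNA from 12 samples was measured on Affymetrix Mouse MG-430 PM arrays. Per the labels, 22 cycles of amplification started from 5 ng of RNA, and 8 µg of cDNA was labelled. The deposited values are log2 intensities, a scale read from their range. RMA and affy are named, with no version, role or order, per the submitters' processing notes. The annotation build is not given in the sources used here. Of the probe sets, 104 are controls, 28898 have 1 symbol, 551 several and 15588 none. The brightest probe set stood for a gene. Genes above the array's 30th percentile on at least 3 arrays were tested.

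A group-mean model of all arrays was fitted with limma 3.58.1 (R 4.3.3) and eBayes, with 8 residual degrees of freedom, two-sided, adjusted by Benjamini-Hochberg, and the fit was tested on simulated data. The members and lists were chosen with earlier results of these data known. The naming rule took all 9 members, up to 3 rises and 3 falls of each list by adjusted p, a few fixed genes and the 6 genes most like P2ry12 and Fcrls. Some genes under it were left out. Others (neighbours, Trem2, Cd9, Rgs10, Aqp4, Irf8, Cebpb, Tgfb1, Tgfb2, Tgfbr1, Clec7a) were named after their values were seen. Lists are described by counts and medians. Shares of all genes called are at an adjusted p under 0.05, and none was taken for the counts at an unadjusted p. Bounds from background were chosen after the values were seen. Alternatives covered the filter, probe set, scaling, fit, pairing and left-out arrays. The titles give each group replicates numbered alike, without saying that equal numbers belong together. Deviations of same-numbered arrays from their group means correlated at 0.155, 0.138 and 0.413 at 8 h (replicates 1, 2 and 3). At 14 d they correlated at 0.164, 0.0684 and 0.463 in the same order. Among the replicate 3 arrays of all 4 groups the correlations ran from 0.401 to 0.526. The likeness of replicate 3 was thus shared across both times, and replicates 1 and 2 were only weakly alike. These figures come from the data alone and do not show that KA and control arrays were paired within a time. The source of the likeness was not tested. No array was left out.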

Additional observations from a re-analysis of the deposited data

Results flagged for a closer look

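For each of the 8 homeostatic genes tested, the change after KA differed between the times, as tested by the interaction of KA and time in limma over all 13853 genes. The change at 14 d minus that at 8 h was 1.997 for P2ry12 (log2, adjusted p = 8.33e-06), 1.30 for P2ry13 (adjusted p = 0.000128) and 1.20 for Tmem119 (adjusted p = 0.000364). It was 1.09 for Csf1r (adjusted p = 0.000115), 0.84 for Cx3cr1 (adjusted p = 0.00975) and 0.91 for Selplg (adjusted p = 0.000449). Fcrls gave 0.70 (adjusted p = 0.00528) and Olfml3 1.38 (adjusted p = 0.000371). P2ry12, P2ry13, Tmem119, Csf1r and Selplg were lower than every 8 h control on every KA array at 8 h and higher than every 14 d control on every KA array at 14 d.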

How the results depend on the processing

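Among the members, no log2 change reversed its sign under an alternative in which it was called. At 14 d the 7 called members kept their calls under all 25 alternatives. The replicate block (pairing) gave 6 called at 8 h, 8 at 14 d with P2ry12 added (adjusted p = 0.00309 and 0.00521), 8 for the difference and 4 between controls with Fcrls added. Between controls, 5 were called with only the groups compared in the fit and 5 with array weights, whose fit did not fully converge, and leaving out 1 array gave 1 to 4. At 8 h leaving out the third arrays gave 4 called, with fewer samples in the fit. Over all genes, calls at 14 d numbered 354, but 2099 with array weights, 599 and 576 with the replicate block, and 196, 211 and 228 without control 14 d replicate 2, control 14 d replicate 3 or KA 14 d replicate 1. For the difference, 764 became 2168 with array weights, and 1214 and 1178 with the block. Between controls, 249 became 543 with only the groups compared, 1336 with array weights and 570 with the block, and 86 to 421 without 1 array. At 8 h, 2420 of 13853 genes were called, against 3673 of 22392 when the probe sets of a gene were each tested. These counts have different totals. The 8 h count of genes was 3293 with array weights, 3134 and 3076 with the block, and 1859 without the third arrays. Leaving out 1 array gave 1659 to 2748 at 8 h. With cyclic loess the split at 8 h was 1438 up and 1152 down against 1097 and 1323. Between controls it was 180 up and 188 down against 155 up of 249. The cause was not tested. Selplg and Gpr34 are limited by their signal over background.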
